A study of Homo sapiens with 13 samples.

Results

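Broad stretches of open chromatin that 2 small cell lung cancer (SCLC) lines have in common were described here as 1013 accessible regions of the line H146, each at least 5000 bp wide and each touching a region of the line H82 by at least 1 bp. They were selected on their width and on that overlap, from the 169986 H146 regions on chromosomes 1 to 22, of which 119974 touched an H82 region. Width and overlap are therefore given as descriptions of the choice and not as findings. All values refer to genome build hg38, and starts and ends are 1-based.

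H146 and H82 are established human SCLC lines of different neuroendocrine subtypes. Both were profiled by ATAC-seq without treatment and after 14 days in 100 nM FHD-286, which inhibits SMARCA2 and SMARCA4, the ATPases of the SWI/SNF chromatin remodellers. Of the 7 libraries of H146, 4 were from untreated and 3 from treated cells, and of the 6 of H82, 3 were of each kind. Each deposited list pooled the peaks of untreated and treated libraries of 1 line, with no value per library, so no effect of FHD-286, no replicate spread and no read depth could be read from it. Differences between the lines cannot be told apart from differences in depth, number of libraries or DNA copy number, and no test over samples was possible.

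In ATAC-seq a transposase cuts DNA that is not wrapped tightly around nucleosomes, and runs of cuts are called as peaks. Most peaks are about the size of a single promoter or enhancer. Much wider regions arise where neighbouring peaks stand so close that they are joined, as at CpG-rich promoters, across short active genes, in clusters of enhancers, or in tandem arrays of repeated DNA. CpG islands, stretches in which the dinucleotide CpG has not been lost, mark many promoters of widely expressed and developmental genes.

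The promoters of 6 members show what lay under many of these regions, and were chosen from the genes named by fixed rules. They are RefSeq windows (GRCh38.p14) of 300 bases, from 250 before to 50 after the start, written 5′ to 3′ on the gene's strand. Capitals mark each CpG. EGR1, JUNB and FOS encode immediate early transcription factors. HES1 encodes a repressor that acts below Notch, FOXA1 a pioneer factor, and GRP the neuroendocrine peptide gastrin-releasing peptide.
EGR1 (chr5:138465229-138465528, plus strand, 33 CpGs): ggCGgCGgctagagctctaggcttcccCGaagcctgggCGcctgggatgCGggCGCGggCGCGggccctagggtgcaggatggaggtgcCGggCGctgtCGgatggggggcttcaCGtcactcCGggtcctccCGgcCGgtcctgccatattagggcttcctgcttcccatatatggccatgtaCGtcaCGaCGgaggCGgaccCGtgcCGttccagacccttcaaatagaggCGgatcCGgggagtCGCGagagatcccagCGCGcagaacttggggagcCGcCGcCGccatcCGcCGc
JUNB (chr19:12791236-12791535, plus strand, 29 CpGs): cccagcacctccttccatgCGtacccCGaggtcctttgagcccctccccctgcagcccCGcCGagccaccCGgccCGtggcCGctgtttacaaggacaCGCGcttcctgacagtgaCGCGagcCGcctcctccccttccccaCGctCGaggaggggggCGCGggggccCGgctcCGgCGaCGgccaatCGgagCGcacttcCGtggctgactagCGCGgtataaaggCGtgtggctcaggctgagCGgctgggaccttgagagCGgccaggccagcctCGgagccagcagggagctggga
FOS (chr14:75278578-75278877, plus strand, 30 CpGs): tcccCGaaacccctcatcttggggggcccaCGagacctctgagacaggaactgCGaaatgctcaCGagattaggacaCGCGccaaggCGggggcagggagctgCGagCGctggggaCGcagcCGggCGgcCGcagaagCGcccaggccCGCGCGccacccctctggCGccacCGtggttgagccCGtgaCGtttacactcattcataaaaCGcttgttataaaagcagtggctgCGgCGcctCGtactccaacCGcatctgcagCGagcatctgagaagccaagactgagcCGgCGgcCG
HES1 (chr3:194135898-194136197, plus strand, 21 CpGs): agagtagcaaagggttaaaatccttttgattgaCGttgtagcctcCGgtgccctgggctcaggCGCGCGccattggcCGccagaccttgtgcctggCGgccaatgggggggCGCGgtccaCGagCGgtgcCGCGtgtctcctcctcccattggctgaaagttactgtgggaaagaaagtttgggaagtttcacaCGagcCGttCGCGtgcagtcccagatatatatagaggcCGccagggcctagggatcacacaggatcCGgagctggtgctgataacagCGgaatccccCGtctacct
FOXA1 (chr14:37595200-37595499, minus strand, 34 CpGs): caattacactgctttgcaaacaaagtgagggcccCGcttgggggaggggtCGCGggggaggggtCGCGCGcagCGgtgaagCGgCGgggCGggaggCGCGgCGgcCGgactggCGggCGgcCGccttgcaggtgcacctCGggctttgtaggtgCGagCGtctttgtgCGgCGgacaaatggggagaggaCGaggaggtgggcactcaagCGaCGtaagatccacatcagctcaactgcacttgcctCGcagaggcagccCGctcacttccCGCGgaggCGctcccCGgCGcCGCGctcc
GRP (chr18:59219908-59220207, plus strand, 27 CpGs): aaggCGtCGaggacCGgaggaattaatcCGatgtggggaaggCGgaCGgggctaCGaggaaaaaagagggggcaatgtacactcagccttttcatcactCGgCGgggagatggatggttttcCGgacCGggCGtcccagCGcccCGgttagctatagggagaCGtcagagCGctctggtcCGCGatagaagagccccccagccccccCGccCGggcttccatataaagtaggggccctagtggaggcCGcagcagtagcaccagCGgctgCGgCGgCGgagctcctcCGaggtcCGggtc
GC content of these windows was lowest at HES1, at 59.0%, and highest at JUNB, with 69.3% at EGR1 and FOXA1.

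Inside members that H82 did not cover in full, the stretches left out often looked different. The next 3 sequences were taken from the middle of the widest gap between H82 regions in the FOS and HES1 members, and in the member that H82 broke into the most pieces, in the 3′ part of SMAD7. These 200-base stretches lie outside every annotated exon, are read on the plus strand of hg38, and were picked after the gaps had been seen.
FOS gap, beyond the gene's annotated end (chr14:75282499-75282698, 2 CpGs): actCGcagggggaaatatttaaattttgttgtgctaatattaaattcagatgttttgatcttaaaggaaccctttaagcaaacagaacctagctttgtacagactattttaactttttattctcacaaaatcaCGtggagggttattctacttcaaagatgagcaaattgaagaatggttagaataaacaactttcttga
HES1 gap, upstream of the gene (chr3:194132534-194132733, 1 CpG): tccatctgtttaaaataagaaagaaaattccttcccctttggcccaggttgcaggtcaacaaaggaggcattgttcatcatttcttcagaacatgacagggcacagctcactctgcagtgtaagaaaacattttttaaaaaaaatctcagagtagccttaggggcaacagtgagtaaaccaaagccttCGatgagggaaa
SMAD7 intron gap (chr18:48925250-48925449, 0 CpGs): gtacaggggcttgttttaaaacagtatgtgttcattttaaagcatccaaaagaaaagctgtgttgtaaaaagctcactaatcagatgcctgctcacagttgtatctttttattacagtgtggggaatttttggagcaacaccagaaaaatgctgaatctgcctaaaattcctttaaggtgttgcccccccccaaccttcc
Their GC content was 31.5%, 41.0% and 40.0%, in the order printed.

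A last stretch is the middle of the member with the lowest GC content, which overlaps NTS, the gene of the neuroendocrine peptide neurotensin. The overlap was recorded for the whole member and not for the printed stretch. It was chosen to show a member with hardly any CpG, and the stretch is again on the plus strand.
NTS member (chr12:85883173-85883372, 1 CpG): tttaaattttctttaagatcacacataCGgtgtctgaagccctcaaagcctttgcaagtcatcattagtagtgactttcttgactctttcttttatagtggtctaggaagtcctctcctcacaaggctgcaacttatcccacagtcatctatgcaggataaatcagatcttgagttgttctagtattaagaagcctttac
H82 covered less of this member than of any other: a single H82 region of 509 bp took 9.69% of its 5251 bp.

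The members were 6254 bp wide at the median, with quartiles of 5497 and 7962 bp and a maximum of 46478 bp. They made up 0.596% of the H146 regions and 5.62% of their bases, 7630 kb in all. A single H146 region of at least 5000 bp did not touch H82, at chr5:257210-262570. The threshold cut through a continuous distribution. Just inside it lay 2 members of exactly 5000 bp, at chr18:904530-909529 over the start of ADCYAP1, which encodes a neuropeptide, and at chr14:103345296-103350295. Just outside it lay chr2:73253907-73258894 near CCT7, of 4988 bp, and chr18:3447706-3452688 near TGIF1, of 4983 bp. GC content was 59.1% at the median in the 365 shared regions up to 500 bp below the threshold and 59.0% in the 256 members up to 500 bp above it.

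GC content of the members was high, and the DNA around them was GC-rich as well. The median was 60.2% (quartiles 55.4% and 63.5%), against 57.1% in the 10921 shared H146 regions from 2000 bp to just under 5000 bp, called 2 to 5 kb regions below, and 50.7% in all 118961 shared regions under 5000 bp. The 10 kb on each side of the members had a median of 52.3%, against 45.8% beside the regions of 2 to 5 kb. On 19 of the 21 chromosomes with at least 5 members the median GC content of the members was above that of the 2 to 5 kb regions, and for the flanks this held on all 21. In 96.8% of members the region was richer in GC than its own flanks. GC content was 60% or more in 520 members, between 50% and 60% in 390, and under 50% in 103.

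**Figure D1:**
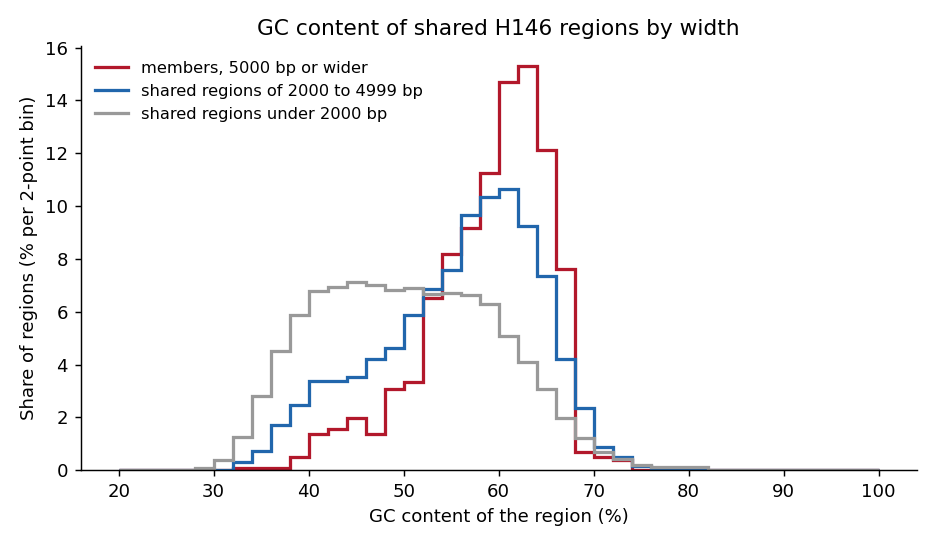
Share of regions (vertical axis, percent of regions in bins of 2 percentage points) by GC content of the region (horizontal axis, percent), for members (red), shared H146 regions of 2 to 5 kb (blue) and shared H146 regions under 2000 bp (grey). The members' curve stands furthest right, around its median of 60.2%, and the curve of the narrowest regions furthest left.

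CpG density of the members was near that of the 2 to 5 kb regions and above that of all shared regions under 5000 bp. Members held 36.6 CpGs per kb at the median, against 37.3 and 13.9 per kb in these sets. The ratio of observed to expected CpG was 0.414 in members, against 0.456 and 0.232. A ratio of 0.6, a usual limit for a CpG island, was reached by 16.6% of members, against 35.6% and 11.6%. Among regions with a protein-coding transcription start site (TSS) the ratio was 0.50 in members and 0.679 in regions of 2 to 5 kb. A wider region takes in more DNA beyond the island itself, and its part in the lower ratio than in the 2 to 5 kb regions was not tested.

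The lowest and the highest GC content belonged to very different DNA. The 3 members of lowest GC lay at chr12:85880648-85885898 (33.9%), overlapping NTS, at chr8:105770053-105775327 (35.7%), in ZFPM2, and at chr12:85778435-85784681 (36.1%). The 3 of highest GC were chr10:133753312-133758318 (72.8%) and chr4:190077018-190086201 (72.6%), over DUX4-like pseudogenes of subtelomeric arrays, and chr21:8248944-8261090 (72.5%), over ribosomal RNA. All 3 lay wholly inside an H82 region.

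Gene starts were common in the members, and many members held none. A protein-coding TSS, taken as the 5′ end of the gene in GENCODE 44, lay inside 495 of 1013 members, or 48.9% (95% exact binomial interval 45.7% to 52.0%, for counting error only, since neighbouring regions are not independent). The share was 39.1% in the 2 to 5 kb regions and 6.86% over all H146 regions. It was higher in members than in the 2 to 5 kb regions on 17 of 21 chromosomes. Counting the 5′ ends of all transcripts of protein-coding genes raised it to 64.6%. A TSS of any kind of gene lay in 63.4%, and a lncRNA TSS in 28.6%, against 17.4% of the 2 to 5 kb regions. Wider regions have more room for a TSS, and how much of these differences the width alone gives was not tested.

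From the centre of a member to the nearest protein-coding TSS the median distance was 5337 bp (quartiles 1326 and 33412 bp), against 9324 bp for the 2 to 5 kb regions. It fell to 1633 bp with the 5′ ends of all transcripts and to 1949 bp with genes of every type, so this distance depends strongly on which starts are counted. At the other end, 188 members, or 18.6%, lay more than 10 kb from any TSS, against 29.6% of the 2 to 5 kb regions. Of these 188, 60.6% touched the body of a protein-coding gene, near the 57.6% of 2 to 5 kb regions more than 10 kb from any TSS. GC content of the 188 members was 55.8% at the median, against 60.9% in members with a protein-coding TSS.

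Members with a gene start mostly reached further downstream of it than upstream. Among the 376 members with exactly 1 protein-coding TSS, the region extended 2460 bp upstream and 4000 bp downstream at the median, and 252 of them were longer downstream. The same lean was present in 72.7% of the 3624 regions of 2 to 5 kb with 1 TSS. As the TSS was the 5′ end of the gene, transcript starts further in count as downstream. Their part in the lean was not tested. Bases downstream can also lie past the end of a short gene. The 646 protein-coding genes that start inside a member were short, with a median length of 11349 bp against 27877 bp for all protein-coding genes, and 173 of them (26.8%) lay inside the member from end to end. Short genes crowd the GC-rich parts of chromosomes, and the part of that in the difference was not tested. There were 2 or more protein-coding TSSs in 119 members, and 23 held a divergent pair within 1000 bp.

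The richest member in gene starts was chr16:29803248-29817856, 14609 bp wide, with 5 protein-coding TSSs, among them MAZ, a zinc finger transcription factor, PAGR1, a partner of histone methyltransferases, and PRRT2, a synaptic protein. Next came 4 starts each at chr14:105460007-105506484 (CRIP1, CRIP2 and TEDC1 among them), chr17:82013597-82038104 (CENPX, DCXR, LRRC45 and RAC3), chr9:137219759-137239024 (CYSRT1, RNF208, RNF224 and SLC34A3) and chr16:714206-731579 (ANTKMT, CCDC78, HAGHL and METRN). H82 covered 99.6%, 92.0%, 97.0% and 100% of the first 4, and 78.3% of the last. The MAZ member was 1 region in both lines.

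In all, 646 of 19111 protein-coding genes (3.38%) started inside a member, while 70.3% started inside some H146 region. For lncRNA genes the share in members was 1.91%. The counts below are read against these shares and carry no test.

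Immediate early genes, whose transcription rises within minutes of a stimulus, had the highest share of the 14 gene lists examined. Of 22 on the list, 10 (45.5%) started inside a member: ZFP36, IER2, JUNB, EGR1, FOS, JUN, JUND, FOSL2, FOSB and KLF6. ZFP36, which encodes a protein that speeds mRNA decay, lay in a member of 10859 bp. IER2 lay in one of 10673 bp, which H82 split in 2. The JUNB member, of 9509 bp, lay wholly inside 1 H82 region. At EGR1 the H146 region was 9263 bp wide, and H82 had regions of 5251 and 1530 bp that covered 73.2% of it. At FOS, 7714 bp in H146 met regions of 4937 and 954 bp in H82, with a gap of 1609 bp between them. The JUN member, of 7029 bp, was covered to 94.1% by 1 region. The start of each of these 10 genes lay in an H82 region.

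Replication-dependent histone genes, short genes without introns that are switched on in S phase, gave 17 of 69 (24.6%), inside 9 members. The widest were chr1:149847496-149856697, over H2AC19 and H3C15, and chr1:149837095-149844527, over H2AC18 and H3C14. On chromosome 6, H2AC17, H2BC17 and H3C12 shared chr6:27889348-27895898. The member over H4C5, chr6:26201500-26207510, had the same start and end in H82, 6011 bp in both lines. GC content of these members was below the median of all members, at 42.8% over H4C5, 45.8% over H3C8 and H2BC10, and 53.9% over H2AC18 and H3C14.

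Genes of the MYC network, transcription factors that pair with MAX or compete with MYC, gave 3 of 12. The MNT member was 10521 bp wide and lay wholly inside an H82 region of 12187 bp. MXI1 lay in a member of 5899 bp with 97.6% in H82. MYC itself lay in a member of 6688 bp, at chr8:127733494-127740181. H82 covered the MYC member with a single region of 282037 bp, the only H82 region over 50 kb that touched a member. Read depth and copy number, which such a region may follow, were not tested.

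Neuroendocrine factors and markers gave 4 of 28 (14.3%), namely FOXA1, ELAVL3, SEZ6 and GRP. This share was above the 3.38% of all protein-coding genes, though it rests on 4 genes and most of the list started outside the members. Inside some H146 region started 25 of the 28. ELAVL3 encodes a neuronal RNA-binding protein and SEZ6 a neuronal membrane protein. H82 covered 99.3% of the FOXA1 member, 95.8% of the ELAVL3 member and 96.2% of the SEZ6 member with 1 region each. The GRP member, 5166 bp wide, met regions of 1647 and 2731 bp in H82. Among 19 low-neuroendocrine genes HES1 alone started inside a member, of 12397 bp, while 13 started inside some H146 region. H82 covered 93.9% of the HES1 member with regions of 2658 and 10065 bp.

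Forkhead transcription factors gave 6 of 47 (FOXJ1, FOXS1, FOXA1, FOXO3, FOXH1 and FOXL2), and SOX genes 1 of 18, SOX12. Of the 28 SWI/SNF subunits, the complexes that FHD-286 acts on, ARID2 alone (3.57%) started inside a member, which is close to the 3.38% of all protein-coding genes. The ARID2 member, of 5465 bp, was split by H82 into regions of 495 and 4362 bp. Cytosolic ribosomal proteins gave 3 of 80, close to the share of all genes. The small nucleolar RNA host genes gave 1 of 32, SNHG9, in the RPS2 member. Zinc finger genes of the C2H2 class gave 6 of 503. None of 39 splicing factors of the SR and hnRNP families, 39 HOX genes or 53 clustered protocadherins did, and 33, 15 and 14 of them started inside some H146 region. At the share of all protein-coding genes, lists of this size would hold few, so these counts are not read as a result.

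**Figure D2:**
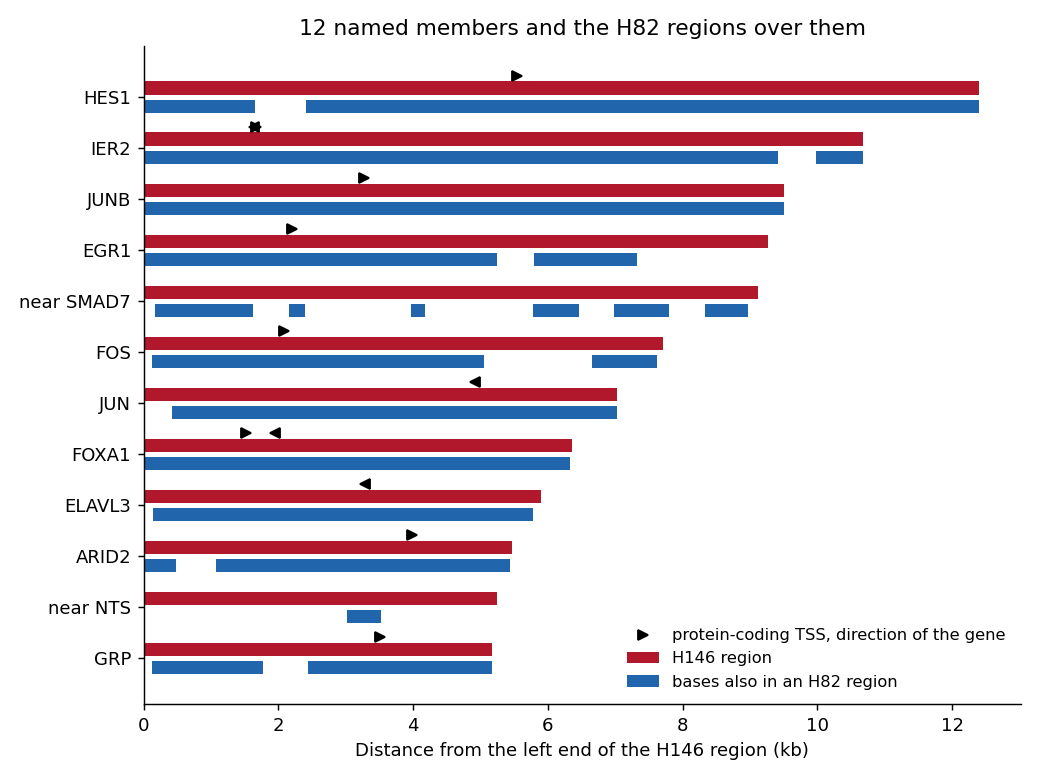
The 12 members named at the left, drawn to scale from the left end of the H146 region (horizontal axis, kb), 1 per row. The red bar is the H146 region, the blue bars are its bases that also lie in an H82 region, and arrowheads mark protein-coding TSSs with the direction of the gene. FOS, EGR1 and GRP show 2 blue pieces, the member in SMAD7 6, JUNB a single unbroken piece, and NTS 1 short piece.

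Further genes were picked after their values had been seen. Regulators of neuronal and neuroendocrine identity were among the 646: POU3F2 (5336 bp), POU4F1 (6936 bp), ONECUT2 (10872 bp), HES6 (8247 bp) and RCOR2, a partner of REST-type corepressor complexes (7737 bp). H82 covered the POU3F2 member to 100% and the RCOR2 member to 92.7%, while ONECUT2 and HES6 were each in 3 H82 regions. ID1, ID2 and ID3, inhibitors of basic helix-loop-helix transcription factors, all started inside members, of 11211, 6333 and 6171 bp. DLX5 and DLX6 lay in neighbouring members of 17216 and 9346 bp. Among 1759 miRNA genes 62 (3.53%) started inside members, near the 3.38% of protein-coding genes, and some of the 62 shared a member. MIR375, which encodes a miRNA abundant in neuroendocrine cells, was 1 of them, and so were MIR200C and MIR141, both in 1 member and known for keeping the epithelial state.

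Promoter windows of the members' genes were compared with those of all protein-coding genes. RefSeq windows matched 469 of the 646 genes by symbol, against 14616 genes in all. GC content of the windows was 68.7% at the median for members and 63.0% for all, with medians of 28 and 22 CpGs per window. The GC box GGGCGG, read on both strands, was in 76.5% of the members' windows and 59.6% of all windows. The cyclic AMP response element TGACGTCA was in 3.41% against 2.70%, which is only 16 of the members' windows. The other words shown here were somewhat less frequent than in all windows: CCAAT in 35.4% against 36.3%, the ETS word CCGGAAG in 11.7% against 14.5%, the E-box CAGCTG in 16.4% against 17.8%, the E-box CAGATG in 11.1% against 11.6%, TGTTTAC in 1.92% against 2.65%, and TGANTCA in 3.62% against 5.69%. Counts were small for the rarer words, with 9 of the members' windows for TGTTTAC and 17 for TGANTCA. A match is a run of letters and not a bound site. The GC box is itself made of G and C, and the part of GC content in its share was not tested.

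Over the whole width of the members the same words were counted per kb. GC boxes had a density of 1.85 per kb in members, 1.89 in the 2 to 5 kb regions and 1.19 in all shared regions under 5000 bp. The AT-rich forkhead word TGTTTAC was found 0.0734 times per kb in members, 0.120 times in the 2 to 5 kb regions and 0.179 times in all shared regions under 5000 bp. For the AP-1 word TGANTCA the densities were 0.204, 0.253 and 0.343 per kb, in the same order. The E-box CAGCTG, a word read by basic helix-loop-helix factors, was found 0.872, 0.744 and 0.815 times per kb. The E-box CAGATG was found 0.744, 0.697 and 0.798 times per kb, so members lay between the other sets.

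Members were unevenly spread over the chromosomes. Per 1000 shared H146 regions there were 23.5 members on chromosome 14, 18.9 on 17, 17.6 on 18 and 14.6 on 16, against 2.42 on chromosome 15. Chromosome 18 had 112 members and chromosome 17 had 108. Within 5 Mb of a chromosome end lay 38.2% of members, against 18.3% of the 2 to 5 kb regions. Those 387 members had a median GC content of 63.1%, against 57.7% for the rest, but held a protein-coding TSS less often, in 42.9% against 52.6%. A protein-coding TSS lay in 23.9% of the members on chromosome 14 and in 25% of those on chromosome 18. Chromosome 18 also held 46 of the 188 members far from any TSS. Copy number was not measured here, so its part in the counts by chromosome was not tested.

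**Figure D3:**
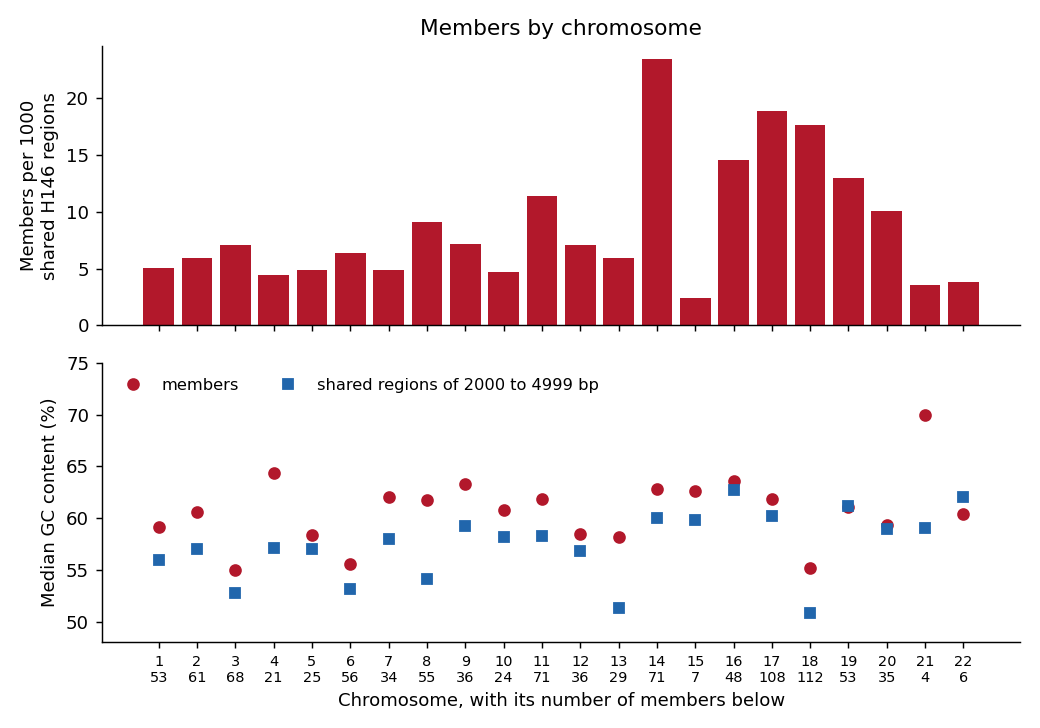
Members per 1000 shared H146 regions (upper panel) and median GC content in percent (lower panel; members as red circles, shared regions of 2 to 5 kb as blue squares) on chromosomes 1 to 22. Chromosome 14 is highest in the upper panel at 23.5, and the red circle lies above the blue square on all but 2 of the 21 chromosomes with at least 5 members.

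Many members had a close neighbour. Within 50 kb of another lay 480 (47.4%), in 150 runs, 35 of which had 4 or more members. The 2 largest runs were 18 members at chr14:105311512-105775530, around BRF1, MTA1 and CRIP1, and 14 members at chr18:37247735-37579793, around CELF4, which encodes a neuronal RNA-binding protein. A run of 12 lay at chr14:104550775-104806823, around AKT1 and INF2, and one of 8 at chr18:48856900-49025289, around SMAD7, an inhibitor of TGF-beta signalling. In the last, members covered 38.3% of the run. Of the 10 widest members 7 lay on chromosome 14, from CKB, the brain creatine kinase, through JAG2, which encodes a Notch ligand, to CRIP1. Another run, of 6 members at chr14:105854724-105915255, lay in the immunoglobulin heavy chain locus. Over chromosomes 1 to 22, 21 of 37 annotated immunoglobulin D segments (56.8%) started inside members, a total that includes copies outside this locus.

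The widest member, chr14:105460007-105506484, was 46478 bp, with a GC content of 64.9% and 4 protein-coding TSSs. H82 covered it to 92.0% in 5 pieces, of which the largest was 38127 bp. The JAG2 member, chr14:105142962-105183170, was 40209 bp in H146 and 40109 bp in H82. The member over CKB and TRMT61A, chr14:103511389-103552385, met H82 regions of 37147 and 1083 bp. Of the 10 widest, 5 held no start of a protein-coding gene. Of these, chr14:104090349-104120768 held MIR203A and MIR203B, and was 5 pieces in H82. On chromosome 6, 2 wide members stood next to each other over FRMD1: chr6:168075104-168104497, of 29394 bp, and chr6:168047999-168074392, of 26394 bp.

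Some of the widest members were tandem arrays, in which the same sequence recurs. A 20-base word was counted as recurring where it occurred more than once in the region. At least 50% of words recurred in 16 members (1.58%), against 0.650% of the 2 to 5 kb regions. A wider region gives a word more room to recur, and the part of width in this difference was not tested. These 16 were selected after their values had been seen. The member of 41310 bp at chr19:36268594-36309903, with no TSS within 10 kb, had 98.5% of recurring words. The array of 5S ribosomal RNA genes at chr1:228608275-228648562, of 40288 bp, held 18 gene starts, had 95.2% of recurring words and was 1 region of 40343 bp in H82. A pair of HBA1 and HBA2, the near-identical alpha-globin genes, was in 1 member of 5445 bp. A single H82 region overlapped 15 of the 16, and over all 16 the lowest share covered was 97.5%. Reads from identical copies cannot be placed with certainty, so heights and edges in arrays are uncertain in both lines.

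In 7 of the 16 the sequence matched itself best when shifted by 26 bp, with 55.8% to 68.4% of bases equal. They lay on chromosomes 1, 2 and 15 (1, 4 and 2 members), were 5305 to 18404 bp wide and held no annotated TSS. GC content ran from 62.5% to 67.3%, but the ratio of observed to expected CpG was between 0.0814 and 0.169, so GC-rich members need not be rich in CpG. The middle of the widest of them, chr2:91510462-91528865, is printed over 104 bases, the length of 4 units.
26-bp array (chr2:91519612-91519715, 0 CpGs, plus strand): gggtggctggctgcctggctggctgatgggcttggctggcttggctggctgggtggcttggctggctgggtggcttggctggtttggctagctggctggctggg

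How H82 met the members fell into 4 classes. In 438 (43.2%) there was 1 H82 region that touched no other H146 region. In 400 (39.5%) there were 2 or more H82 regions, none of which reached another H146 region. In 120 (11.8%) the member was joined, in that its only H82 region also touched a further H146 region. The last 55 (5.43%) were both split and joined. Among the 2 to 5 kb regions the same classes held 77.6%, 14.6%, 6.86% and 0.971%, so the wide regions were less often matched singly. A wide region can touch more H82 regions than a narrow one, and no test was run, since overlap with H82 was part of the choice.

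The number of H82 pieces was 1 in 558 members, 2 in 299, 3 in 118, 4 in 25, 5 in 12 and 6 in 1. In bases the lines were closer than in pieces. H82 covered 89.0% of the members' bases, with a median of 91.8% per member. Coverage was at least 90% in 560 members and under 50% in 18, and 213 (21.0%) lay wholly inside H82. In 640 (63.2%) the widest H82 region was itself at least 5000 bp, so for the rest no H82 region reached the width that chose the members in H146. From the other side, 643 of the 1428 shared H82 regions of at least 5000 bp (45.0%) touched a member.

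Where 1 region met 1 region, the edges were close. Over the 876 edges of the 438 singly matched members, the median offset was 83 bp, 52.4% were within 100 bp, and 223 fell on the same base. The width in H82 divided by that in H146 was 0.987 at the median (quartiles 0.933 and 1.01), and H82 was the wider in 125 (28.5%). As members were picked for their width in H146, a ratio below 1 is what the choice favours.

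**Figure D4:**
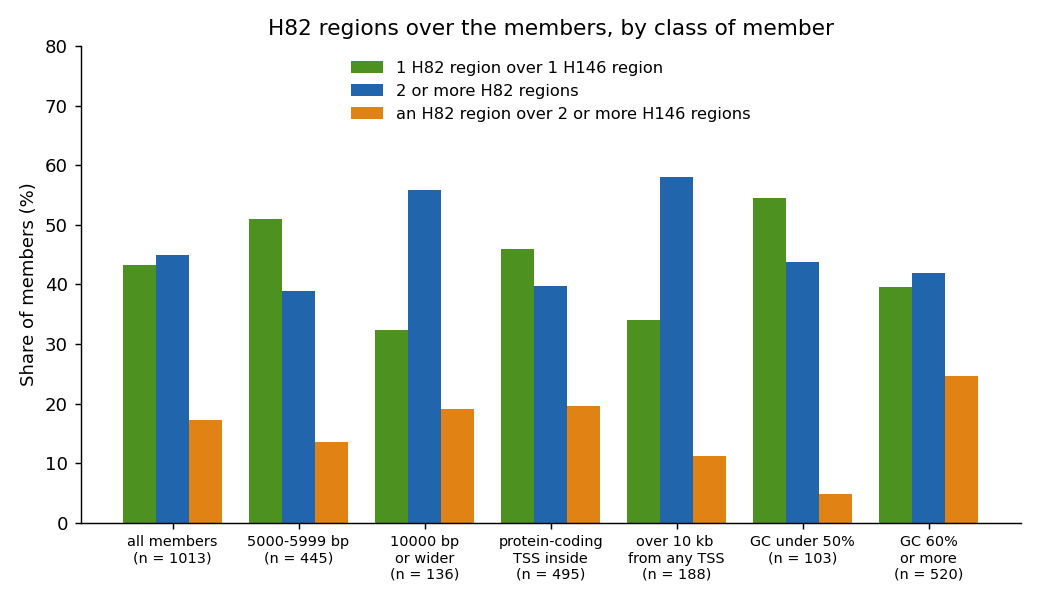
Share of members (vertical axis, percent) with 1 H82 region that touches no other H146 region (green), with 2 or more H82 regions (blue) and with an H82 region that reaches a further H146 region (orange), for all members and for classes of width, TSS and GC content. Blue and orange can hold the same member. Blue is highest, at 58.0%, in members more than 10 kb from any TSS.

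Splitting differed between kinds of members. H82 had 2 or more pieces in 58.0% of the 188 members more than 10 kb from any TSS and in 39.8% of the 495 with a protein-coding TSS, with a median coverage of 84.3% and 93.6%. By width, the share was 38.9% in the 445 members under 6 kb and 55.9% in the 136 of 10000 bp or more. Joining was more frequent at higher GC content: it was found in 24.6% of members with 60% GC or more, 10.8% of those between 50% and 60%, and 4.85% of those under 50%. Chromosomes differed too, with 64.3% of members split on 18, 63.4% on 14 and 66.7% on 16, and 23.2% on 6. Members far from a TSS were common on chromosome 18, and the part of the chromosome in their splitting was not tested.

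The member with the most pieces, 6, was chr18:48920373-48929487 in the 3′ part of SMAD7, 9115 bp wide, of which H82 covered 44.5%. Its H82 regions were 1458, 240, 209, 690, 813 and 646 bp wide. The 12 members with 5 pieces included chr14:104573509-104600547 over C14orf180 and chr16:714206-731579 over METRN, which encodes a secreted neurotrophic factor. In the second, gaps of 1124, 1110, 918 and 603 bp parted the H82 regions.

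Gaps were mostly short. There were 663 of them in 455 members, with a median width of 702 bp (quartiles 587 and 939 bp, maximum 2886 bp), and 78.9% were 1000 bp or less. Peaks within 500 bp of each other had been merged in both lists, and the shortest gap was 502 bp. Some splits thus lay close to this limit. When H82 regions were joined across gaps of up to 1000 bp, the share of members in 2 or more H82 regions fell from 44.9% to 12.5%, and the share joined to other H146 regions rose from 17.3% to 46.4%. The H146 regions were left as merged within 500 bp, so the lists were then merged unequally. Joining H82 regions alone can only lower the share split and raise the share joined, so the direction of these changes was given beforehand. Whether splitting and joining depend on a merging distance common to both lists was not tested.

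Gaps were mostly poorer in GC than the bases of the same member that H82 covered. In 389 of the 455 members (85.5%) the gaps had a lower GC content than the bases covered by H82, with medians of 53.8% and 61.0% and a median difference of -5.65 percentage points. The direction was the same in 175 of 197 members with a protein-coding TSS and in 86 of 109 members more than 10 kb from any TSS, with median differences of -8.12 and -4.08 points. In 2 to 5 kb regions that H82 split, it held in 82.4% of 1701, with a median difference of -4.64 points, so it was not particular to wide regions. CpGs numbered 20.1 per kb at the median in gaps and 36.1 per kb in covered bases. The gap stretches of FOS, HES1 and SMAD7 printed above each had a lower GC content than their whole member, which had 53.0%, 54.0% and 53.7%. GC content also affects how well fragments are amplified and sequenced, and the part of this in the gaps was not tested.

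**Figure D5:**
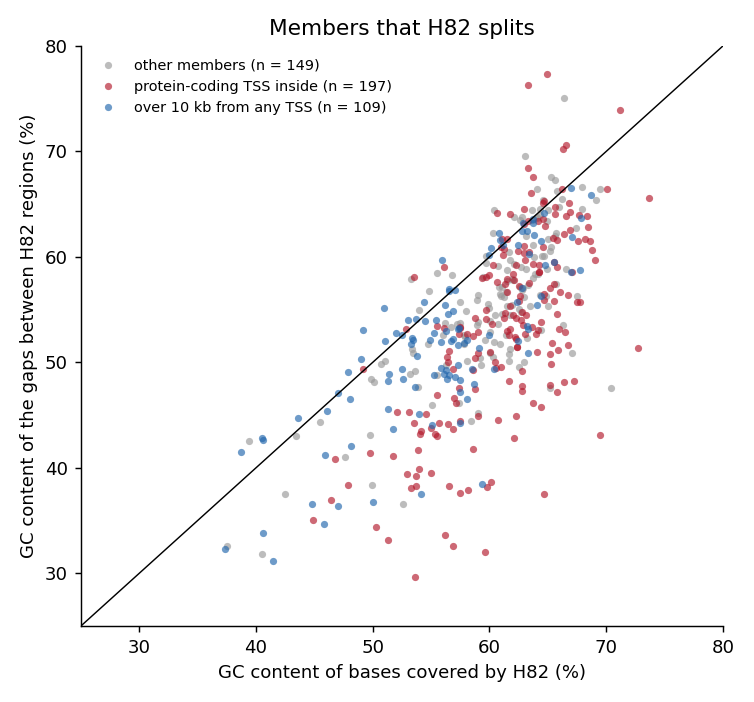
GC content of the gaps between H82 regions (vertical axis, percent) against that of the bases covered by H82 (horizontal axis, percent) in the 455 members that H82 splits, 1 point per member, coloured by position relative to TSSs. The line marks equal values, and 389 points lie below it.

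Gene starts were almost always on the covered side. Of the 646 protein-coding TSSs inside members, 635 (98.3%) lay in an H82 region, while H82 covered 89.0% of bases. Among the 11 that did not, 3 chosen after their values were seen were FGF3, which encodes a fibroblast growth factor, KIF26A, an atypical kinesin, and EVC2, a ciliary protein. ZNF688 and ZNF446 were also among the 11. The FGF3 member, chr11:69815494-69821975, was 6482 bp wide with a GC content of 63.8%, and H82 covered 24.5% of it in 4 pieces. Gaps between H82 regions held a protein-coding TSS in 7 of 663 cases.

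Joining seldom brought members together, although an H82 region could take in many narrower H146 regions. The H82 region over MYC touched 48 H146 regions. Those over the 2 members of DUX4-like pseudogenes with the highest GC content touched 7 each. Of 1666 H82 regions that touched members, 169 also touched a further H146 region, but only 10 touched 2 members and none touched more. One was chr1:915954-949472, 33519 bp, around SAMD11, which spanned 2 members and 5 H146 regions and was covered to 75.5% by H146. At FASN, the fatty acid synthase gene, chr17:82076306-82108401 joined 2 members over 32096 bp. Near DNLZ and CARD9, chr9:136342129-136368989 joined 2 members and 4 H146 regions, and at FBXL16 and METRN chr16:704364-716572 joined 2 members within 12209 bp. The fifth, chr2:91497512-91528869, lay in the 26-bp arrays described above.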

How the data were processed

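ATAC-seq was performed on cryopreserved cells of both lines, 13 libraries in all. Per the labels and the submitters' processing notes, reads were trimmed with Trim Galore 0.4.4 and aligned to hg38 with Bowtie2 2.3.4, and peaks were called with MACS2. The authors removed duplicates and blacklisted regions and merged peaks within 500 bp into 1 list per line, over untreated and treated libraries. The deposited files hold the chromosome, start and end of each region and no counts, so depth is unknown. The study describes 2 batches for H146, which the pooled list does not separate. Chromosomes 1 to 22 were used.

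Overlaps were computed with Python 3.11.15, numpy 2.4.6 and pandas 2.3.3, checked against bedtools 2.31.1, and tested on simulated regions. GC content, CpGs and words were read from the hg38 sequence, and gene starts from GENCODE 44. Intervals are 95% exact binomial (scipy 1.17.1). Flanks were 10 kb on each side. No test was run, since no value per library existed. Members were named by fixed rules: the 10 widest, the 5 with most protein-coding TSSs, the 5 with most H82 pieces, the 5 H82 regions joining most members, the 3 highest and 3 lowest in GC, the 5 widest without a TSS within 10 kb, 2 on each side of the threshold, and up to 6 per gene list. The members, lists and rules were chosen with earlier results of these data known. A few items that these rules named are not reported here.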

Additional observations from a re-analysis of the deposited data

How the results depend on the processing

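Values were recomputed under 15 alternatives, 4 of them chosen after seeing the data (leaving out chromosome 14, 17 or 18, or the members of recurring sequence). A share or median was taken as unmoved inside the 95% interval of its reported value, and a count within 1.5 times. Of 79 values, 54 were unmoved and 25 moved.

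A width of at least 4000 bp gave 1930 members, a median GC content of 59.5%, and 50.5% and 38.7% of members with 1 and with several H82 regions. A width of at least 10000 bp gave 136 members, 62.3% GC, 58.8% over a protein-coding TSS, a median of 94.1% covered, and 32.4% and 55.9% with 1 and with several H82 regions. An overlap of 50% of both regions gave 52.5% over a TSS, a median distance of 3317 bp, 94.4% covered, and 53.4% and 35.0% with 1 and with several H82 regions. The 5′ ends of all transcripts gave 64.6% over a TSS and a distance of 1633 bp, and genes of every type gave 1949 bp. The central 1000 bp had 61.0% GC. Leaving out chromosome 18 gave 60.8% GC and 92.9% covered. H82 regions joined across gaps of up to 1000 bp gave 12.5% in several regions and 46.4% joined, and H82 regions of at least 500 bp alone gave 51.4% with 1 and 36.1% with several.

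Leaving out repeats from GC content was not run, since the reference does not mark them. No paired analysis was possible because no result comes from a test over samples. Without counts, faint accessibility below the peak threshold cannot be told from none.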
